A study of Mus musculus with 14 samples.

Results

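Nuclear receptors are transcription factors that bind DNA and, in most cases, a lipid or steroid ligand, and coregulators are the proteins they recruit to raise or lower transcription. The probes described here are those whose platform gene symbol names a nuclear receptor or one of its coregulators, with Pparg left out and treated apart. The rule found 37 probes of 36 genes among the 10012 probes of the array; Nr6a1 has 2 probes. Symbols alone chose the members, not their values, and several receptors outside the pattern of names are not included. No probe matched Nr1h2 (LXRβ), Nr1d1 or Rarb, which are not analysed here.

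The RNA came from peritoneal macrophages drawn out with thioglycollate, an irritant broth, from female C57BL/6 mice aged 6 weeks. Each of 14 one-colour arrays measured 1 preparation, 2 arrays in each of 7 groups. The groups were no treatment, LPS (a bacterial lipopolysaccharide and ligand of TLR4), poly(I:C) (synthetic double-stranded RNA, which TLR3 binds), and each of these stimuli together with GW3965, which activates the liver X receptors (LXRs), or with GW7845, which activates PPARγ. All groups shared strain, sex, age and elicitation. Every group was wild type as far as the labels say, with no transgene or deletion named. Neither agonist was given alone, and no dose or duration is stated in the sources used here. The 2 arrays of a group are biological replicates per the series text, which does not tell single animals from pools. The p-values thus rest on the spread between these preparations, taken over all groups, and not on one between known single animals. Unless a fit takes it out, that spread also holds a gap between 2 sets of arrays, described below. The cells are a mixed lavage population enriched for macrophages, and in such bulk RNA fewer cells of a type and less RNA per cell cannot be told apart.

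Most nuclear receptors that sense lipids bind DNA as a pair with a retinoid X receptor. In macrophages the LXRs drive cholesterol export, the PPARs drive fatty acid handling, and the glucocorticoid receptor restrains inflammatory genes. On DNA sites that a receptor shares with a retinoid X receptor, corepressor complexes with histone deacetylases can keep transcription low without a ligand. When a ligand binds there, coactivators of the p160 family (Ncoa1 to Ncoa3 by symbol) replace them. Where a receptor is instead tethered to an inflammatory promoter, such corepressor complexes keep transcription low. Receptors without a settled ligand are called orphans, and the NR4A orphans are immediate early genes in many cells.

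Values are log2 of an intensity that the authors had scaled to a median of 1 on each array, so 0 is the array's typical probe and a difference of 1 is a doubling. Values under a floor of 0.0686, or -3.87 on the log2 scale, were raised to it and are bounds. The 14 arrays divide into set A and set B, 7 arrays each, told apart by the low end of their intensities: the 10th percentile was 0.137 to 0.271 in set A and 0.0549 to 0.0833 in set B. Every group has 1 array in each set, and pairs of values below give set A first. A probe was called where limma's adjusted p (Benjamini-Hochberg over the 9534 probes tested) was under 0.05 in a fit of the 7 group means to all 14 arrays. A second fit with the set as a block, called the array-set fit, gives the same differences with the set gap taken out of the error. All 37 members passed the filter on dim probes. Nr1h3 was missing on every array of set B, which left 36 members to test.

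Brightness across probes does not order transcripts, but it shows where a change could be seen. On every array 9 members lay above the array's median intensity and 16 lay below it, while 12 were mixed. In 9 members at least 1 array was at the floor. The sets differed for many members: 27 of the 36 were lower on average in set B, and in 12 the gap exceeded 1 on the log2 scale. Ppargc1a, which encodes the coactivator PGC-1α, averaged -1.57 in set A and -3.56 in set B. Rxrg, by contrast, averaged 1.64 and 1.52. For members such as Ppargc1a the set gap is part of the error of the fit without a block.

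**Figure D1:**
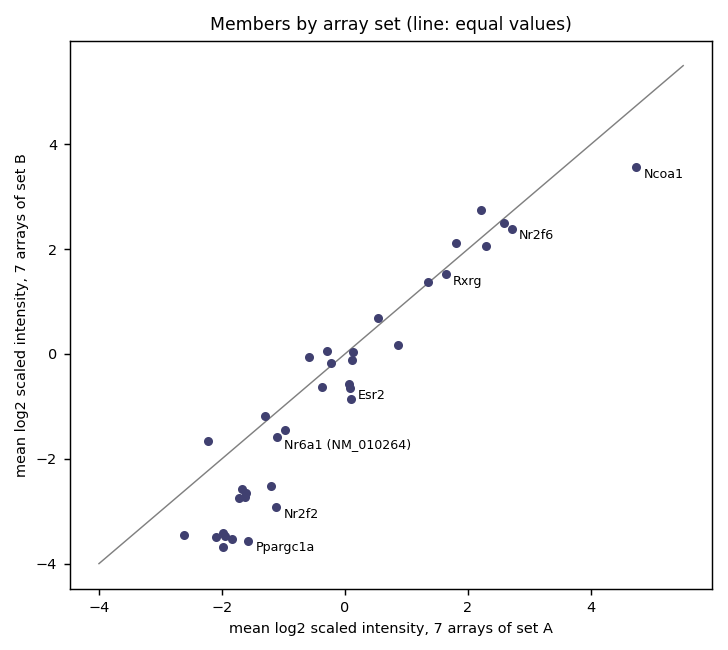
Mean log2 scaled intensity of each of the 36 fully measured members over the 7 arrays of set A (horizontal) and of set B (vertical); the line marks equal values. Of these members 27 lie below the line, 12 of them by more than 1, such as Ppargc1a at -1.57 and -3.56 and the bright Ncoa1 at 4.74 and 3.57; the dim Rxrb, at -2.22 and -1.66, lies above it.

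Of the macrophage marker list 7 probes were on the array, and their summed intensity was 1080 to 1890 in untreated cells and 1250 to 2650 in stimulated cells. Lyz2, Cd14, Itgam, Mrc1 and Mertk were above the median on every array, Adgre1 ranged from the 48.1 to the 81.4 percentile, and Fcgr1 lay at or below the 30.6 percentile. Within this list Cd14 rose under LPS by 2.69 and Adgre1 by 2.21. Mesothelial markers were dim, with sums of 0.456 to 2.12 over 5 probes. The 5 neutrophil probes summed to 16.1 to 27.8 in untreated cells and to 31.4 to 46.4 with LPS. Camp (+4.59, between the 24.8 and 76.8 percentile) was the only one called, and Mpo was not among the probes tested. S100a8 lay at the 84.4 to 94 percentile on all arrays, Ngp at or below the 47.9, and Mpo and Elane at or below the 27 percentile. The neutrophil sum was 23.8 to 50.5 with poly(I:C). With GW3965 it was 17.6 to 20.3 beside LPS and 16 to 16.4 beside poly(I:C), and with GW7845 31.9 to 39.2 and 47.7 to 59.9. The 5 mast cell probes summed to 8.78 to 10.6 in untreated cells and to 10.5 to 16.4 in stimulated cells, with none called under either stimulus alone. The 2 dendritic cell probes summed to 23.4 to 51.1 in untreated cells, 18.4 to 31.9 with LPS and 20 to 35.7 with poly(I:C), and to 10.7 to 26.2 with an agonist. Over all arrays the sums were 10.4 to 22.3 for B cells, 16.3 to 31.7 for T and NK cells, 2.25 to 5.09 for eosinophils and 7.74 to 12.3 for fibroblasts. The part of other cell types in the results below was not tested.

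The first question was which receptors and coregulators changed when the cells met a stimulus. Under LPS the orphan receptor Nr6a1 rose on 1 of its 2 probes, and Rxrg, Nr2f6, Rora and Ppargc1b fell. Poly(I:C) raised the same Nr6a1 probe, the glucocorticoid receptor Nr3c1 and the oestrogen receptor Esr2, and lowered Rxrg, Rora and Nr2f6. The 2 comparisons share the untreated arrays, so a change seen in both is not seen independently.

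Against untreated cells LPS thus called 5 of 36 members, 1 higher and 4 lower, or 13.9%, beside 7.89% of all probes tested (5.24% higher and 2.64% lower). In the array-set fit 8 were called, 3 higher and 5 lower, or 22.2% beside 17.8% of all probes (9.62% higher and 8.19% lower). Poly(I:C) called 6, 3 in each direction, or 16.7% beside 8.89% (6.1% higher and 2.79% lower), and with the set as a block 7, 3 higher and 4 lower, or 19.4% beside 18.7% (10.7% higher and 8.06% lower). The members' shares were thus above the background in the fit without a block and near it in the array-set fit; no test of that gap was made. The median difference of the members was 0.17 with LPS and 0.12 with poly(I:C), against 0.06 and 0.10 over all probes, and 22 members lay above 0 and 14 below in both comparisons. With quantile normalization the median of all probes moved by -0.14 and -0.17, and the split of all called probes went from 500 higher and 252 lower to 511 and 384 for LPS and from 582 and 266 to 565 and 419 for poly(I:C). Every call of a member kept its direction under that scaling.

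In 6 of the 36 members both untreated arrays lay beyond all 12 stimulated arrays, a separation that 16.8% of all probes tested showed. The untreated arrays were the higher ones for Rxrg, Nr2f6, Rora and Ppargc1b and the lower ones for Nr6a1 and Esr2. The share is that of the background, so the separation describes these genes without setting the family apart.

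**Figure D2:**
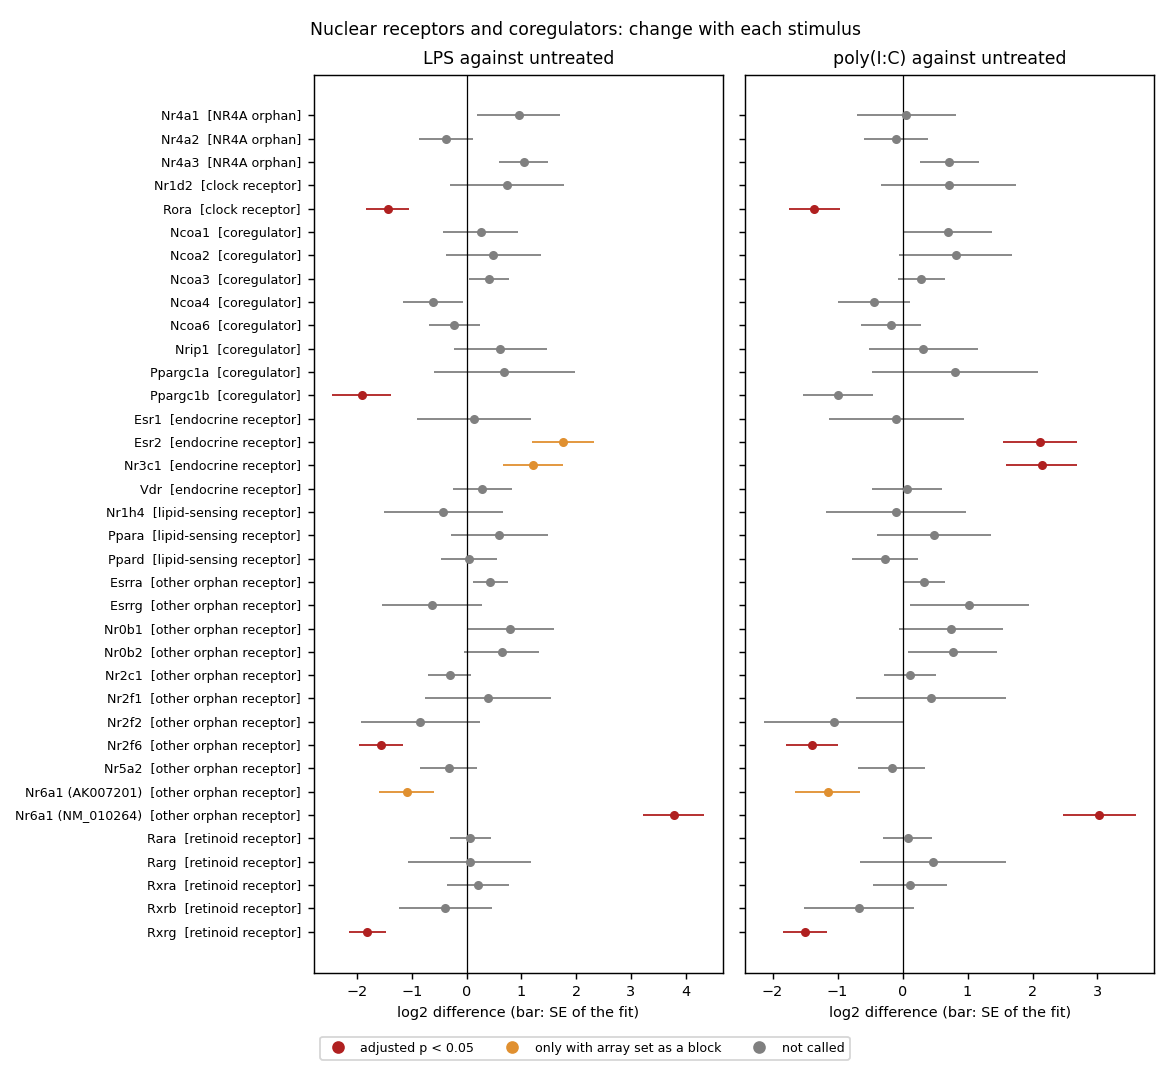
Difference of each tested member from untreated cells on the log2 scale, with LPS (left) and with poly(I:C) (right); bars are the SE of the fit without a block, red marks adjusted p under 0.05 there, and orange a call in the array-set fit only. Nr6a1 (NM_010264) stands farthest right in both panels, at 3.78 and 3.03, and Rxrg, Nr2f6 and Rora lie left of 0 in both.

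**Figure D3:**
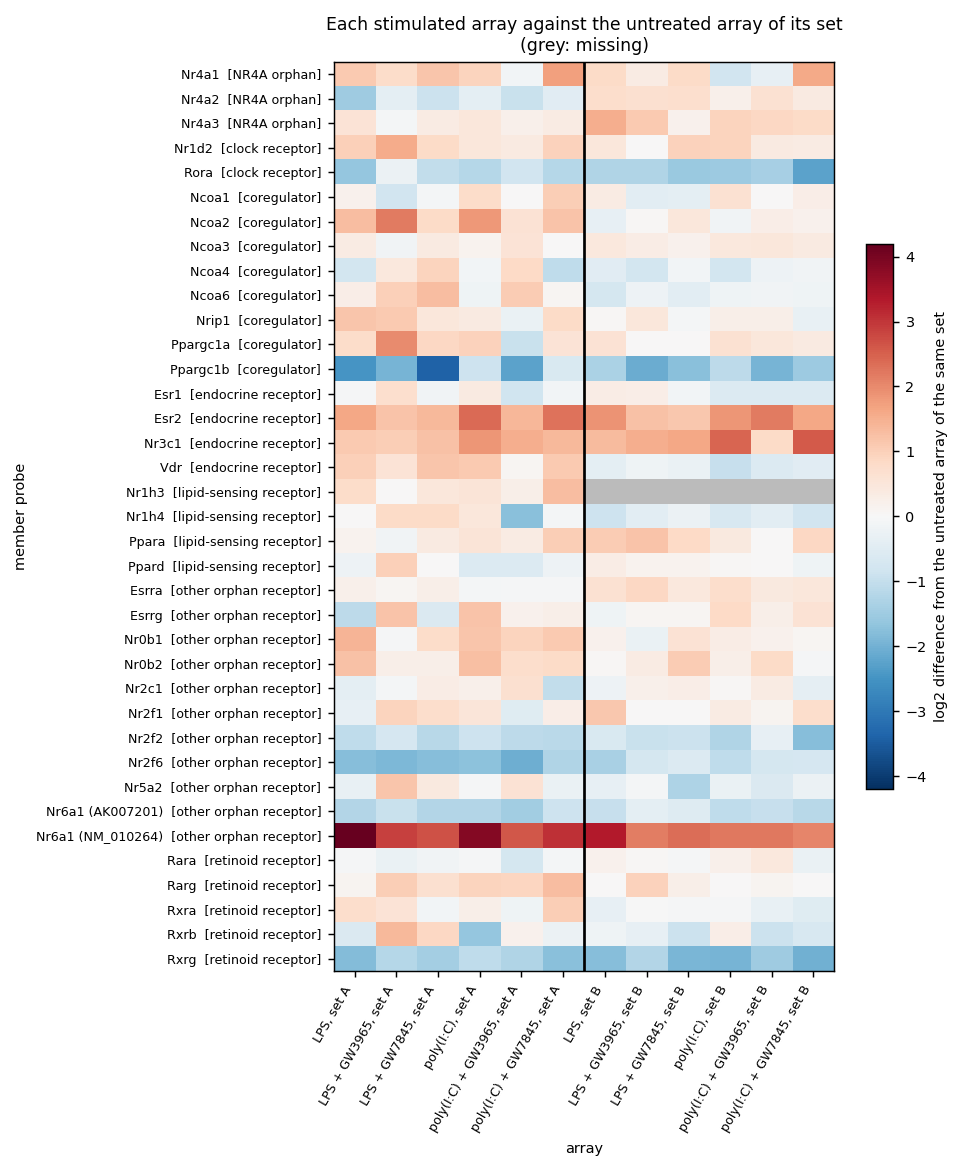
Log2 difference of each stimulated array from the untreated array of its own set, for every member (rows, with the family in brackets) and array (columns, set A left of the line); red is higher than untreated, blue lower, grey missing. Nr6a1 (NM_010264) and Esr2 are red and Rxrg, Nr2f6 and Ppargc1b blue across the 12 columns.

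Nr6a1 encodes germ cell nuclear factor, an orphan receptor known as a repressor of pluripotency and germ cell genes. Its probe on the transcript NM_010264 read -3.87, the floor, and -3.63 in untreated cells. LPS arrays read 0.35 and -0.29, and poly(I:C) arrays -0.02 and -1.40. No stimulated array came near the untreated ones: the lowest of the 12 was -1.57. The rise was at least 3.78 with LPS (SE 0.56, limma adjusted p = 0.00053, at least 13.7-fold) and at least 3.03 with poly(I:C) (SE 0.56, adjusted p = 0.0026, at least 8.19-fold), as bounds because of the floor. Within the sets the differences were 4.22 and 3.33 with LPS and 3.84 and 2.23 with poly(I:C). Even after the rise the probe lay near or below the array's median, so this is a change from near the bottom of the array's range to its middle. Both calls held when any 1 of the arrays compared was left out, with the smallest rise 2.35 (adjusted p = 0.05 after rounding) without poly(I:C) replicate 1.

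The second Nr6a1 probe, on the transcript AK007201, moved the other way. It read 1.87 and 0.91 in untreated cells, 0.64 and -0.05 with LPS, and 0.63 and -0.15 with poly(I:C). The untreated pair was the higher in each comparison. The difference was -1.09 with LPS (SE 0.50, adjusted p = 0.28) and -1.15 with poly(I:C) (SE 0.50, adjusted p = 0.22). These were called only in the array-set fit, at 0.023 and 0.016. The probes were made on different transcripts, and the array does not show which of them follows the gene's main product, so a direction holds for each probe and not for the gene.

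**Figure D4:**
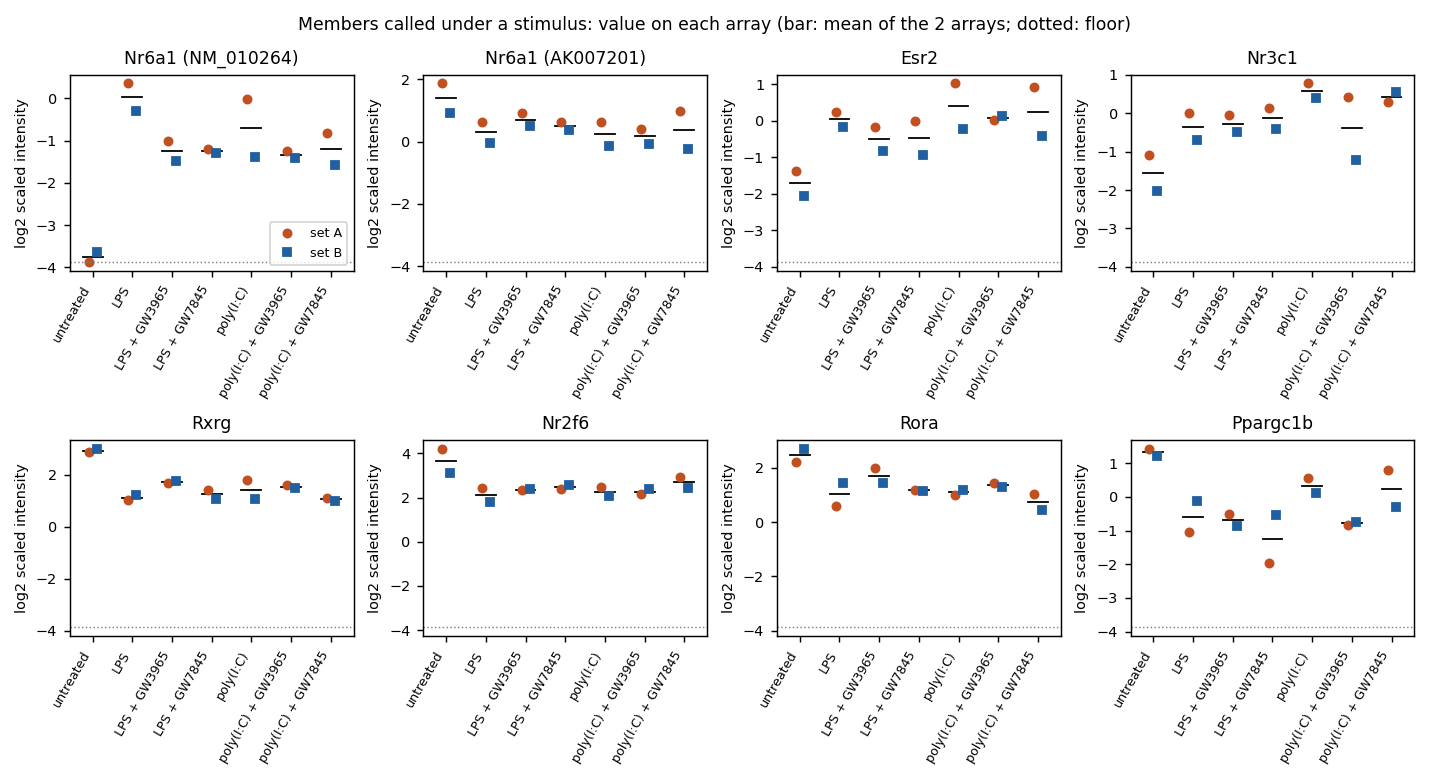
Log2 scaled intensity on each of the 14 arrays, by group, for the 8 member probes called in either fit; circles are set A, squares set B, bars the mean of the 2 arrays and the dotted line the floor. For Nr6a1 (NM_010264) the untreated pair lies at -3.87 and -3.63 and all stimulated arrays at -1.57 or above, while Nr6a1 (AK007201), Rxrg, Nr2f6, Rora and Ppargc1b are highest in untreated cells on average.

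Of the members called with both stimuli in at least 1 fit, the promoter windows that held a match are printed, after a search for the motifs of factors known to act downstream of Toll-like receptors and of nuclear receptors. RefSeq (GRCm38.p6) gave 50 windows for 32 of the 36 member genes, each running from 250 bases before a start site to 50 after it. The search, on both strands, used the cAMP response element TGACGTCA, the AP-1 site TGANTCA, the interferon response core GAAANNGAAA, the GAS core TTCNNNGAA, the nuclear receptor core AGGTCA and the NF-kB consensus. Capitals mark a match on either strand, and sequences run 5′ to 3′ on the gene's strand.
Nr6a1 first start, chr2:38926412-38926711, minus strand: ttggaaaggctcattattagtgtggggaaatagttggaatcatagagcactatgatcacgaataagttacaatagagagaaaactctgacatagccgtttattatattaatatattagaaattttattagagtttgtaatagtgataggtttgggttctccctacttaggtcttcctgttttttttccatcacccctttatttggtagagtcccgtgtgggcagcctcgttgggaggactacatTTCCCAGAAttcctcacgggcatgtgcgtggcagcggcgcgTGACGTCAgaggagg
Nr6a1 second start, chr2:38784466-38784765, minus strand: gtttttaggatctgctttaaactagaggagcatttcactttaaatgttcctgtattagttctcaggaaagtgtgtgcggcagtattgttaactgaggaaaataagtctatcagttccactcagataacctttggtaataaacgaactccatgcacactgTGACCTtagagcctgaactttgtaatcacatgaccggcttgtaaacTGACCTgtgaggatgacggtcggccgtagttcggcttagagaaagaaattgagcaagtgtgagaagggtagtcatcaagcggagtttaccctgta
Esr2, chr12:76177210-76177509, minus strand: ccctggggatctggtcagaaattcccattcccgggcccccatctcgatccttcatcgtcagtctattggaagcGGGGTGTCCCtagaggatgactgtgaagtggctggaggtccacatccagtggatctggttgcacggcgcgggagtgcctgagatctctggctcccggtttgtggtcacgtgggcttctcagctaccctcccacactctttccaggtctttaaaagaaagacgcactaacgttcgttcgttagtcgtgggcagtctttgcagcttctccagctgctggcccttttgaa
Rxrg second start, chr1:167618015-167618314, plus strand: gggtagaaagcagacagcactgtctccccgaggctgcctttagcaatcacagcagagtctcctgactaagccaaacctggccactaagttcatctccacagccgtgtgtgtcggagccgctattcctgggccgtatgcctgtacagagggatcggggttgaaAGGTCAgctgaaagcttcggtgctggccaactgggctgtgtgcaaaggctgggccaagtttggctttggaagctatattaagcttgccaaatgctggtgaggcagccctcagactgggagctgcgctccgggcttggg
Nr2f6, chr8:71381903-71382202, minus strand: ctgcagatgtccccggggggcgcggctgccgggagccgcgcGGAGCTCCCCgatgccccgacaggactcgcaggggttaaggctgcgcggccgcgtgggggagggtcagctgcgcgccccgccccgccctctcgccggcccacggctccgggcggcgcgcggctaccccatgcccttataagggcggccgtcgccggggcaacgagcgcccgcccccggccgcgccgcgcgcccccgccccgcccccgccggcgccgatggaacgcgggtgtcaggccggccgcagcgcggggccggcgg

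The 2 start sites of Nr6a1 carried different letters. The first window held the cAMP response element, beginning 36 bases after the start site, and a GAS core beginning at -6, while the second held 2 receptor cores, at -91 and -45. The Esr2 window held an NF-kB match at -177 and the Nr2f6 window 1 at -209, and the second Rxrg window a receptor core at -88. Which start serves which array probe was not tested. Over all windows the cAMP response element was found in 1.79% of 32851 and in 1 of 50 member windows (2%). The NF-kB consensus was found in 8.46% and in 9 member windows of 6 genes (18%), and the receptor core in 16.3% and in 11 (22%). The AP-1 site was found in 7.81% and in 1 member window (2%), the GAS core in 8.3% and in 4 (8%), and the interferon core in 3.44% and in 3 (6%). The Rora window and the first Rxrg window held no match to these letters and are not printed; Nr3c1 has no entry among the windows used. A gene can have several windows, and a match is a run of letters, not a bound site.

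Among the lipid-sensing receptors none was called. Nr1h3, which encodes LXRα, the receptor of GW3965 measured here, has values in set A only: 3.15 untreated, 3.93 with LPS and 3.68 with poly(I:C). With GW3965 it read 3.16 beside LPS and 3.38 beside poly(I:C), and with GW7845 3.63 and 4.44. These are single arrays and allow no test. Ppard, which encodes the broadly expressed PPARδ, read -0.50 and -0.12 untreated, -0.72 and 0.19 with LPS, and -1.08 and -0.08 with poly(I:C). Its groups overlapped, and the difference from untreated cells was 0.04 with LPS (95% interval -1.05 to 1.14) and -0.27 with poly(I:C) (-1.36 to 0.82). Ppara, the receptor of fatty acid oxidation, was dim at -1.53 and -3.14 untreated, -1.39 and -2.07 with LPS, and -0.99 and -2.73 with poly(I:C). The gap between its sets was as large as any change, and the interval with LPS ran from -1.29 to 2.5. Nr1h4, the bile acid receptor, lay at or below the 31.8 percentile on all arrays.

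Of the retinoid receptors Rxrg fell with both stimuli, and the other members of the family were not called. Rxrg encodes RXRγ, a partner of LXRs, PPARs and the vitamin D receptor. It read 2.86 and 3 untreated, 1.03 and 1.21 with LPS, and 1.79 and 1.06 with poly(I:C). All 12 stimulated arrays, at 0.99 to 1.79, were below the untreated pair. It fell by 1.81 with LPS (SE 0.34, limma adjusted p = 0.0036) and by 1.5 with poly(I:C) (SE 0.34, adjusted p = 0.011). The set differences were -1.83 and -1.79 with LPS and -1.07 and -1.94 with poly(I:C). The LPS call held without any 1 array. The poly(I:C) call was lost without untreated replicate 2 (-1.43, adjusted p = 0.076) and without poly(I:C) replicate 2 (-1.14, 0.14).

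Rxra and Rxrb, the more widely expressed partners, did not follow Rxrg past the test. Rxra read -1.30 and -1.28 untreated, -0.55 and -1.61 with LPS, and -1.04 and -1.32 with poly(I:C), with differences of 0.21 (95% interval -1.01 to 1.43) and 0.11 (-1.11 to 1.33). Rxrb read -2.21 and -1.27, then -2.83 and -1.44, then -3.83 and -0.99, and differed by -0.39 (-2.22 to 1.44) and -0.67 (-2.5 to 1.16). Its sets moved apart under poly(I:C), by -1.62 in set A and by 0.29 in set B. Whether the 3 RXR genes differ from each other in response was not tested. Rara, a retinoic acid receptor, lay between 1.70 and 2.49 on all 14 arrays, and differed from untreated cells by 0.07 and 0.08. Rarg had 4 arrays at the floor.

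Both endocrine receptors that moved rose. Nr3c1 encodes the glucocorticoid receptor, through which corticosteroids act on macrophages. Its probe read -1.08 and -2.03 untreated, 0.01 and -0.71 with LPS, and 0.77 and 0.40 with poly(I:C). Both stimulated pairs lay above the untreated pair, and the poly(I:C) pair was the higher. It rose with poly(I:C) by 2.14 (SE 0.55, limma adjusted p = 0.024; 1.85 and 2.43 in the sets). That call was lost without untreated replicate 2 (1.67, adjusted p = 0.19), poly(I:C) replicate 1 (1.95, 0.14) or poly(I:C) replicate 2 (2.33, 0.069). With LPS the difference was 1.21 (adjusted p = 0.27), called only in the array-set fit at 0.049. Poly(I:C) and LPS differed by 0.94 (adjusted p = 1).

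Esr2 encodes oestrogen receptor β. Its arrays read -1.37 and -2.07 untreated, 0.25 and -0.17 with LPS, and 1.02 and -0.22 with poly(I:C). No stimulated array of any group reached as low as the untreated pair, the lowest being -0.95. The difference with poly(I:C) was 2.12 (SE 0.57, limma adjusted p = 0.03; 2.39 and 1.86 in the sets). Without untreated replicate 2 it was 1.77 (adjusted p = 0.19), and without poly(I:C) replicate 1 it was 1.5 (0.27). With LPS it was 1.76 (adjusted p = 0.084), called only in the array-set fit at 0.0039. Esr1, for oestrogen receptor α, lay at or below the 27.2 percentile on every array, with 3 arrays at the floor. Vdr, the vitamin D receptor, read -2.02 and -0.76 untreated, and its sets moved in opposite directions with both stimuli, by 0.99 and -0.41 with LPS and by 1.10 and -0.96 with poly(I:C).

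The clock receptors Rora and Nr1d2 act on the same DNA element, RORα as an activator and REV-ERBβ, the product of Nr1d2, as a repressor. Rora read 2.22 and 2.70 untreated, 0.60 and 1.44 with LPS, and 1.01 and 1.19 with poly(I:C). All stimulated arrays were below the untreated pair, the highest at 1.98. It fell by 1.44 with LPS (SE 0.39, limma adjusted p = 0.034; -1.62 and -1.26 in the sets) and by 1.36 with poly(I:C) (SE 0.39, adjusted p = 0.044; -1.21 and -1.5). The LPS call was lost without untreated replicate 1 (-1.68, adjusted p = 0.062), untreated replicate 2 (-1.21, 0.20) or LPS replicate 1 (-1.02, 0.31). The poly(I:C) call was lost without any of its 4 arrays in turn, with differences of -1.59 to -1.12 and adjusted p of 0.073 to 0.25. Nr1d2 was dim, with 2 arrays at the floor, and differed by 0.74 and 0.71 (adjusted p = 0.89 and 0.91).

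None of the 3 NR4A orphans was called. Nr4a3 (NOR1) read -0.64 and -1.40 untreated, -0.08 and 0.12 with LPS, and -0.15 and -0.45 with poly(I:C). Both stimulated pairs were above the untreated pair, by 1.04 with LPS (adjusted p = 0.24) and 0.72 with poly(I:C) (0.49). Nr4a1 (Nur77) differed by 0.95 with LPS (95% interval -0.69 to 2.59) and by 0.06 with poly(I:C). Nr4a2 (Nurr1) differed by -0.38 with LPS, by -1.5 in set A and by 0.73 in set B.

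Nr2f6, which encodes the orphan EAR2, a repressor studied in lymphocytes, was called lower with both stimuli. It read 4.21 and 3.13 untreated, 2.43 and 1.78 with LPS, and 2.48 and 2.07 with poly(I:C). The stimulated arrays were all below the untreated ones, the highest at 2.95. It fell by 1.56 with LPS (SE 0.40, limma adjusted p = 0.026; -1.78 and -1.35 in the sets) and by 1.39 with poly(I:C) (SE 0.40, adjusted p = 0.044; -1.72 and -1.06). Without untreated replicate 1, the brightest of the 14 arrays for this probe, the differences were -1.03 (adjusted p = 0.28) and -0.85 (0.39). The LPS call was also lost without LPS replicate 2 (-1.24, 0.25), and the poly(I:C) call without poly(I:C) replicate 1 (-1.60, 0.086) or replicate 2 (-1.19, 0.24). Its relatives Nr2f1 and Nr2f2, the COUP-TFs, were below the median on every array and were not called, with differences for Nr2f2 of -0.84 and -1.06. Esrra, the oestrogen-related receptor that partners PGC-1 coactivators, stayed between 1.98 and 2.86 over all arrays, and its difference was 0.43 with LPS (95% interval -0.27 to 1.12). The remaining orphans, Nr0b1, Nr0b2, Nr2c1, Nr5a2 and Esrrg, had differences of -0.63 to 1.03 over the 2 stimuli, and none was called.

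Among the 8 coregulators Ppargc1b alone was called. It encodes PGC-1β, a coactivator of mitochondrial and lipid genes and a relative of PGC-1α. It read 1.43 and 1.22 untreated, -1.05 and -0.12 with LPS, and 0.55 and 0.12 with poly(I:C). The LPS pair was the lowest of the 3, and every stimulated array, up to 0.79, was below the untreated pair. It fell by 1.91 with LPS (SE 0.54, limma adjusted p = 0.043; -2.47 and -1.34 in the sets). The call was lost without any of the 4 arrays in turn, with differences of -2.37 to -1.44 and adjusted p of 0.053 to 0.29, and with quantile normalization (-1.97, 0.063). With poly(I:C) the difference was -0.99 (SE 0.54, adjusted p = 0.38), and between the stimuli it was 0.92 (adjusted p = 1).

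The p160 coactivators and the other coregulators gave no call. Ncoa3 lay between 1.46 and 2.26 on all arrays and differed by 0.41 with LPS (95% interval -0.35 to 1.17) and by 0.29 with poly(I:C) (-0.47 to 1.05). Ncoa1 read 4.59 and 3.51 untreated, 4.77 and 3.85 with LPS, and 5.35 and 4.16 with poly(I:C). The poly(I:C) array was higher than the untreated one in each set, by 0.75 and 0.66, but the gap between the sets was larger than that (adjusted p = 0.77, and 0.094 in the array-set fit). Ncoa4, also a carrier of ferritin to lysosomes, differed by -0.61 and -0.44. Ncoa2, Ncoa6, Nrip1 (RIP140, a corepressor of energy metabolism) and Ppargc1a had differences of -0.22 to 0.82.

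The 2 stimuli were then set against each other. No member was called between poly(I:C) and LPS in limma, in either fit (adjusted p over all probes), beside 0.0105% of all probes without a block and 0.021% with it. At an unadjusted p under 0.05 there was no member without the block, beside 0.545% of all probes. In the array-set fit there were 2, Nr3c1 (0.94) and Esrrg (at least 1.66), beside 3.15% of all probes. Esrrg lay at or below the 26.8 percentile on every array, and both of its LPS arrays were at the floor, so its difference is a bound.

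The second question was whether an agonist, added to a stimulus, moved the receptors themselves. No member was called in limma in any of the 6 agonist comparisons, in either fit. Over all probes the agonist comparisons called few. GW3965 beside LPS called 0.0315% (0.409% with the set as a block) and beside poly(I:C) 0.0105% (0.0734%), and over both stimuli 0.199% (1.15%). GW7845 called 0% in each comparison (with the set as a block, 0% beside either stimulus and 0.0105% over both). Members with an unadjusted p under 0.05 numbered 1 with GW3965 beside LPS, 1 with GW7845 beside LPS, 0 with either beside poly(I:C) and 1 with each over both stimuli, where 0.871% to 4.52% of all probes had one. In the array-set fit these were 4, 2, 3 (GW3965 beside poly(I:C)), 2 (GW7845 beside poly(I:C)), 3 (GW3965 over both) and 2 (GW7845 over both). Of all probes the shares were 9.79%, 5.96%, 6.22%, 3.8%, 13.4% and 5.74% in the same order, so for 36 members these counts are near the background.

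The member behind each of those counts in the fit without a block was Nr6a1 (NM_010264). With GW3965 it read -1 and -1.49 beside LPS and -1.25 and -1.41 beside poly(I:C). With GW7845 it read -1.21 and -1.30 beside LPS and -0.81 and -1.57 beside poly(I:C). Beside LPS all 4 agonist arrays were below the LPS pair of 0.35 and -0.29. Beside poly(I:C) the groups overlapped. Over both stimuli the difference was -0.94 with GW3965 (SE 0.39, adjusted p = 0.98; 0.16 in the array-set fit) and -0.88 with GW7845 (SE 0.39, adjusted p = 1; 0.57). These comparisons use the same LPS and poly(I:C) arrays for both agonists, so their likeness is not independent, and none passed the test.

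**Figure D5:**
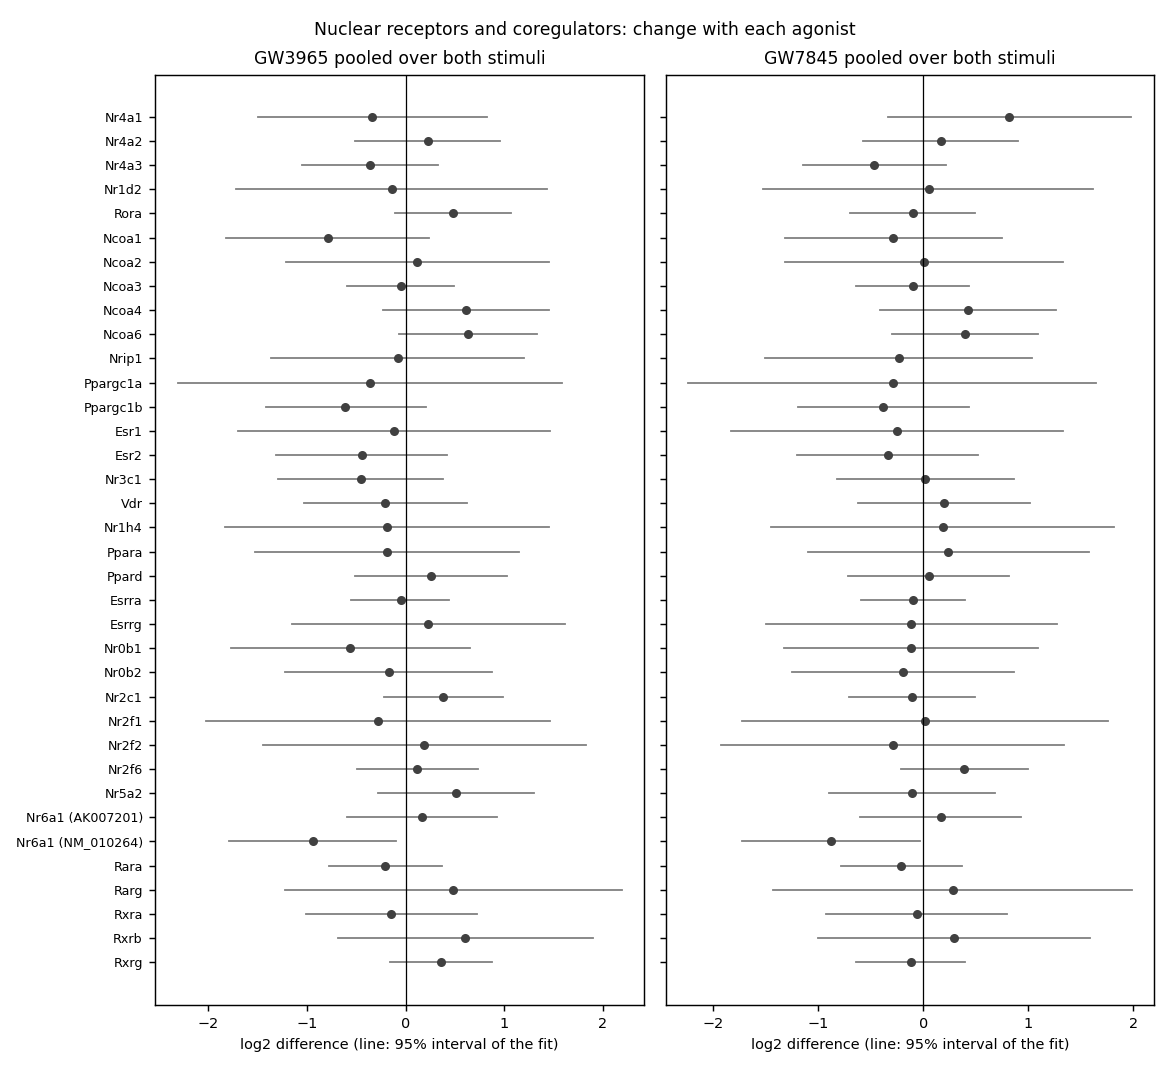
Difference of each tested member with GW3965 (left) and GW7845 (right) from the stimulus alone, averaged over LPS and poly(I:C), on the log2 scale with 95% intervals of the fit without a block. Nr6a1 (NM_010264) lies lowest in both panels, at -0.94 and -0.88; no member was called.

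Other members with agonists are given as values. Ncoa1 read 3.77 and 3.08 with GW3965 and LPS against 4.77 and 3.85 with LPS alone. It read 4.60 and 3.51 with GW3965 and poly(I:C) against 5.35 and 4.16. The GW3965 array was the lower in each set and with each stimulus, with an average difference of -0.79 (SE 0.48, adjusted p = 1; 0.072 in the array-set fit). With GW7845 the average difference of Ncoa1 was -0.29. Nr4a1 read -0.74 and -1.34 with GW7845 and poly(I:C) against -1.55 and -3.71 with poly(I:C) alone, a difference of 1.59 (SE 0.76, adjusted p = 1). Ppargc1b read -0.83 and -0.73 with GW3965 and poly(I:C), below both poly(I:C) arrays, a difference of -1.12 (SE 0.54, adjusted p = 1).

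The partners of the agonists' receptors did not pass the test either. Rxrg read 1.67 and 1.76 with GW3965 and LPS, above the LPS pair by 0.60 (95% interval -0.14 to 1.33), and 1.59 and 1.5 with GW3965 and poly(I:C). With GW7845 it read 1.42 and 1.08 beside LPS and 1.12 and 0.99 beside poly(I:C). Over both stimuli Rxra differed by -0.15 with GW3965 (-1.01 to 0.72) and by -0.06 with GW7845 (-0.93 to 0.80). Rxrb differed by 0.60 (-0.69 to 1.90) and 0.29 (-1 to 1.59), Ppara by -0.19 (-1.53 to 1.15) and 0.24 (-1.10 to 1.58), and Ppard by 0.26 (-0.51 to 1.03) and 0.05 (-0.72 to 0.82). With GW3965 each of these 4 intervals reached a difference of 1 in at least 1 direction. The effect of neither agonist was called as different between the stimuli for any member (interaction in limma, adjusted p = 1 in both fits).

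Genes that work with these receptors were counted from lists of known coregulators, ligand enzymes, chaperones, clock genes and receptor targets. Of 32 other coregulator probes LPS called 1 lower and poly(I:C) 2 lower, with none higher, where 7.89% and 8.89% of all probes were called in either direction. In the array-set fit LPS called 3 lower and poly(I:C) 2 lower, beside 17.8% and 18.7% of all probes. These counts do not set the list apart from the array. Hdac5, a deacetylase of corepressor complexes, fell by 3.43 with LPS (SE 0.49, limma adjusted p = 0.00042) and differed by -3.79 with poly(I:C). Rbl2, a pocket protein, fell by 2.09 with poly(I:C). The median over the list was 0.04 with LPS and 0.02 with poly(I:C), against 0.06 and 0.10 over all probes. Neither agonist called any over both stimuli in limma. None had an unadjusted p under 0.05 without the block. In the array-set fit 2 had with GW3965 and 1 with GW7845, beside 13.4% and 5.74% of all probes.

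Of 27 probes for enzymes and carriers of ligands LPS called 2 higher and 3 lower, and poly(I:C) 3 in each direction, beside 7.89% and 8.89% of all probes. In the array-set fit each stimulus called 3 in each direction, beside 17.8% and 18.7%. Ch25h, which makes 25-hydroxycholesterol, a ligand of LXRs, rose by 6.63 with LPS and by 7.41 with poly(I:C). Cyp27a1, which makes another LXR ligand, 27-hydroxycholesterol, fell, with differences of -2.20 and -2.25. The fatty acid carriers parted: Fabp3 rose by 3.41 and 3.69, and Fabp4 fell (-2.03 and -2.14). Dhrs3, which returns retinal to retinol, fell (-2.24 and -2.40), and Aldh1a2, which makes retinoic acid, rose by 1.52 with poly(I:C). GW3965 lowered Ch25h over both stimuli by 3.19 (SE 0.48, adjusted p = 0.018).

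Of 13 clock probes beside the members LPS called 1 lower and poly(I:C) 2 lower, and in the array-set fit each called 2 lower; against the same background these counts do not set the list apart. Dbp fell (-3.45 and -3.33), and Bhlhe40 fell by 1.95 with poly(I:C). None of 9 chaperone probes was called in limma with either stimulus in the fit without a block. There 4 with LPS and 3 with poly(I:C) had an unadjusted p under 0.05, beside 17.5% and 18.8% of all probes. In the array-set fit LPS called 3 higher and 1 lower, and poly(I:C) 3 higher, beside 17.8% and 18.7% of all probes.

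Targets of the receptors were counted last. Of 17 LXR target probes GW3965 raised 7 over both stimuli, beside 0.199% of all probes called in either direction. In the array-set fit it raised 9, beside 1.15% of all probes. The median of the 17 was 1.40, against -0.04 over all probes. This list was chosen with earlier results of these data known, so its counts are not an independent test. GW7845 called none, with a median of -0.04. At an unadjusted p under 0.05 GW7845 had 0 without the block and 2 in the array-set fit, beside 1.69% and 5.74% of all probes. With GW3965 the cholesterol exporters Abca1 and Abcg1 rose by 2.31 and 2.34, and Eepd1 by 2.61. Against untreated cells each stimulus called only Eepd1 of the 17, lower (-2.18 with LPS and -2.31 with poly(I:C)), beside 7.89% and 8.89% of all probes. In the array-set fit LPS called 1 higher and 3 lower, and poly(I:C) 1 higher and 2 lower, beside 17.8% and 18.7%. Of 14 PPAR target probes neither agonist called any over both stimuli in the fit without a block. There 5 with GW3965 and 4 with GW7845 had an unadjusted p under 0.05, beside 4.52% and 1.69% of all probes. In the array-set fit GW3965 called 1 higher and 1 lower and GW7845 none, beside 1.15% and 0.0105% of all probes. An unadjusted p under 0.05 was found there for 6 and 4, beside 13.4% and 5.74%. Of the 14 probes LPS lowered 1, Fabp4, and poly(I:C) lowered Fabp4 and Acaa2 (-1.83), beside 7.89% and 8.89% of all probes. Of 15 probes for targets of retinoid, vitamin D and glucocorticoid receptors each stimulus raised 1 and lowered 2, beside the same 7.89% and 8.89% of all probes. In the array-set fit LPS raised 1 and lowered 3, and poly(I:C) raised 3 and lowered 3, beside 17.8% and 18.7% of all probes. Nfkbia, also a target of NF-kB, rose by 3.47 with LPS and by 3.83 with poly(I:C). Tsc22d3 (GILZ), a target of the glucocorticoid receptor, fell (-3.66 and -3.64).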

How the data were processed

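Arrays were grouped by their titles. The deposited table holds 1 linear intensity for each probe and array, which the authors had scaled, since each array's median was 1 within rounding; neither the background method nor the scaling is stated in the sources used here. Probes were named from the platform annotation, with 8983 of 10012 having 1 symbol, 1 several and 1028 none. No detection calls were used. Values were floored at the 5th percentile of positive values and log2 was taken. Probes with at least 2 arrays above their own 20th percentile were kept (9584), and 50 without residual degrees of freedom or an estimable fit were left out. Group means were fitted in limma 3.58.1 under R 4.3.3 with an intensity trend and 7 residual degrees of freedom (6 in the array-set fit), two-sided; the scripts were tested on simulated data. Standard errors (SE) and intervals come from that fit.

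Named members were those called in either fit, plus the receptors of both agonists and their partners; others are given by ranges, with the largest changes of a family. Genes of other lists are named where called, at most 5 for a list and comparison. The members and lists were chosen with earlier results of these data known. Replicate numbers followed the array sets in every group but GW7845 with LPS, where they ran the other way round. To compare these orders, each group's mean was subtracted from its arrays, and the deviations, not the intensities, were correlated between groups. For same-numbered arrays these correlations ran from -0.54 to 0.674 over 21 pairs of groups, 15 over 0.1. By array set they ran from 0.354 to 0.674. The 6 pairs that include GW7845 with LPS reached at most -0.391 by number. Alternatives varied the block, normalization, floor, filter, trend, arrays fitted and each array left out. The number of arrays limits the precision throughout.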

Additional observations from a re-analysis of the deposited data

How the results depend on the processing

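The alternatives gave differences from untreated cells for the 8 probes called in either fit, and none of these changed direction. The count of members called with LPS was 5; it was 8 with the array set as a block, 2 without the intensity trend, 2 with only the arrays of the groups compared, and 2 to 3 when each of the 4 arrays compared was left out in turn. With poly(I:C) it was 6; it was 3 without the trend, 0 with only the groups compared, and 2 to 4 when each of its 4 arrays was left out. Leaving GW7845 with poly(I:C) replicate 1 out of the fit gave 5 and 6. The cause of these changes in count was not tested. Fits of only the groups compared, and fits with an array left out, also had fewer arrays. The replicate block gave 6 members with LPS and 6 with poly(I:C). Requiring 2 arrays above the median left out Nr6a1 (NM_010264) and called 4 and 5. Nr6a1 (NM_010264) with LPS was called in 13 of 13 alternatives and with poly(I:C) in 12 of 13, and Rxrg in 14 of 14 and 11 of 14. Nr1h3 could be given no value in a test. Without detection calls, only a probe's level speaks for its signal over background.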
